A study of Capra hircus with 4 samples.

Results

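The NR4A orphan nuclear receptors NR4A1, NR4A2 and NR4A3 were followed in RNA sequencing data of goat longissimus dorsi muscle. The goats (Cashmere Goats, 2 months old) either received no drug or were given ractopamine, a β2-agonist, by mouth at 1 mg/kg for 28 days, followed by 21 days of withdrawal. There was 1 control library, and there were 3 treated libraries, called T1, T2 and T3 here after the numbers in their titles and described as replicates in the series. The study's methods describe male goats and sequencing at several times during dosing and withdrawal, the labels tie no library to a day, and neither says how many animals a library holds. Members were all assembled transcript sequences, called unigenes, that a deposited table pairs with one of the 3 gene names. This gave 5 unigenes for the 3 genes, among 21195 unigenes paired with 11208 named goat genes and 59774 unigenes in all.

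The NR4A receptors are transcription factors with 2 zinc fingers that bind DNA and a carboxy-terminal domain of the ligand-binding type, for which no natural ligand is established. They are immediate early genes: their transcription starts within a short time after a stimulus and needs no new protein. In skeletal muscle, β-adrenergic stimulation raises cAMP, which activates protein kinase A and the transcription factor CREB, and the NR4A genes are known targets of this pathway and regulators of genes of glucose and fatty acid use.

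The assembled sequences of the members are shown first because NR4A1 was split into 2 unigenes whose counts differed. The stretches cover the zinc fingers, and the capitals mark 21 bases of the first finger that code for the part of the finger known to read the DNA base sequence. All stretches are printed on the coding strand, and positions are counted from 1 at the 5′ end of the unigene. The NR4A1 5′ unigene is shown from base 1013 to 1130, the NR4A1 3′ unigene from 1 to 126, the NR4A2 unigene from 379 to 561 and the NR4A3 unigene from 190 to 371.
NR4A1 5′ unigene: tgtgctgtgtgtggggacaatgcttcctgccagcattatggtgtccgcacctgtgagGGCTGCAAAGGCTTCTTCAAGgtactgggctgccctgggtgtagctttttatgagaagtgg
NR4A1 3′ unigene: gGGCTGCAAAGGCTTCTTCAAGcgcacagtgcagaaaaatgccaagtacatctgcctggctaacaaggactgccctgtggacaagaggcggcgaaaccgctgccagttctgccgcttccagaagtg
NR4A2 unigene: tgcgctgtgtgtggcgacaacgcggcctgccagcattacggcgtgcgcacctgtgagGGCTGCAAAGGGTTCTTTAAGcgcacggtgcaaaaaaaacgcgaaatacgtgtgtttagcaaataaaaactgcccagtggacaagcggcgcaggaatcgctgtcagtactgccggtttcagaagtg
NR4A3 unigene: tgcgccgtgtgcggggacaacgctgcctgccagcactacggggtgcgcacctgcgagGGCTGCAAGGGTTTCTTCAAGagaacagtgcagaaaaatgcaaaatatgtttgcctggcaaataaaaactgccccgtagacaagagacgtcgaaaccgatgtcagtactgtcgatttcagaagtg

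NR4A1 was represented by a 5′ unigene of 1268 bases and a 3′ unigene of 1504 bases, which shared 22 bases, the 21 in capitals and the base before them. After these bases the 5′ unigene went on for 178 bases that begin with GT, while the 3′ unigene went on through the second finger. NR4A2 had 1 unigene of 1797 bases. Its finger stretch held a run of 8 A where the other members have 5, so it was 183 bases long in place of 182, and the coding sequence deposited for this unigene starts at base 575, after the fingers. NR4A3 had a unigene of 1352 bases, which holds both fingers and runs past the stop codon, and one of 341 bases. The finger stretches were 81.3% identical between NR4A1 and NR4A2, 81.9% between NR4A1 and NR4A3, and 82.4% between NR4A2 and NR4A3. The longest run of identical bases between unigenes of different members was 24 bases. Past the stop codon, the NR4A1 3′ unigene held 3 copies of ATTTA in 561 bases, a motif known from short-lived mRNAs and read on the coding strand only. Of 4034 other unigenes with at least that many bases after the stop codon, 12.2% had as many copies in the same window. NR4A2 held 1 copy in 407 bases, where 42.3% of 5092 other unigenes held at least 1, and NR4A3 held 0 in 155 bases, where 18.3% of 7769 other unigenes held at least 1.

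The libraries differed in what their counts were made of. All counts ranged from 6675218 to 8533046, but named goat genes took 71.3% of them in the control library, 50.1% in T1, 1.82% in T2 and 40.4% in T3, and mitochondrial unigenes took 23.3%, 41.1%, 89.4% and 54.4%. Levels are therefore given as CPM, counts per 1000000 counts of named goat genes. On this scale 1 count was worth 0.164 in the control library and 7.47 in T2, so that 3 counts, the limit that a count of 0 allows, came to 22.4 CPM in T2 and to between 0.493 and 1.11 in the others. Intervals are exact 95% intervals (Clopper-Pearson) and cover counting error only, not the spread between animals. The markers of skeletal muscle fibres, 8 of 13 of which were found, summed to between 87615 and 140274 CPM in every library, with ACTA1 listed at 130, 6, 0 and 3 counts in the order control, T1, T2 and T3. ACTA1 is nearly identical to ACTA2, which held 238187 counts in the control library, so the division of counts between them is uncertain.

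NR4A1 was the most abundant member in every library, and its share of counts was about 4 times the control value in T1 and T3. It had 284 counts in the control library, 674 in T1, 7 in T2 and 518 in T3. This corresponded to 46.7 CPM (41.4 to 52.4), 169 (156 to 182), 52.3 (21.0 to 108) and 192 (176 to 209). The intervals of T1 and T3 overlapped neither that of the control library nor that of T2, and the interval of T2 included the control value. The ratio to the control library was 3.62 (3.15 to 4.17) in T1, 4.12 (3.55 to 4.77) in T3 and 1.12 (0.447 to 2.34) in T2. Relative to all counts, the ratios were 2.54 (2.21 to 2.93) and 2.33 (2.01 to 2.70) in T1 and T3 and 0.0287 (0.0114 to 0.0598) in T2. Relative to GAPDH, a glycolytic enzyme used as the reference gene, NR4A1 was at 3.97, 0.653 and 2.39 times the control value in T1, T2 and T3. GAPDH itself was not steady, at 0.912, 1.72 and 1.72 times its control value relative to named goat genes.

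**Figure D1:**
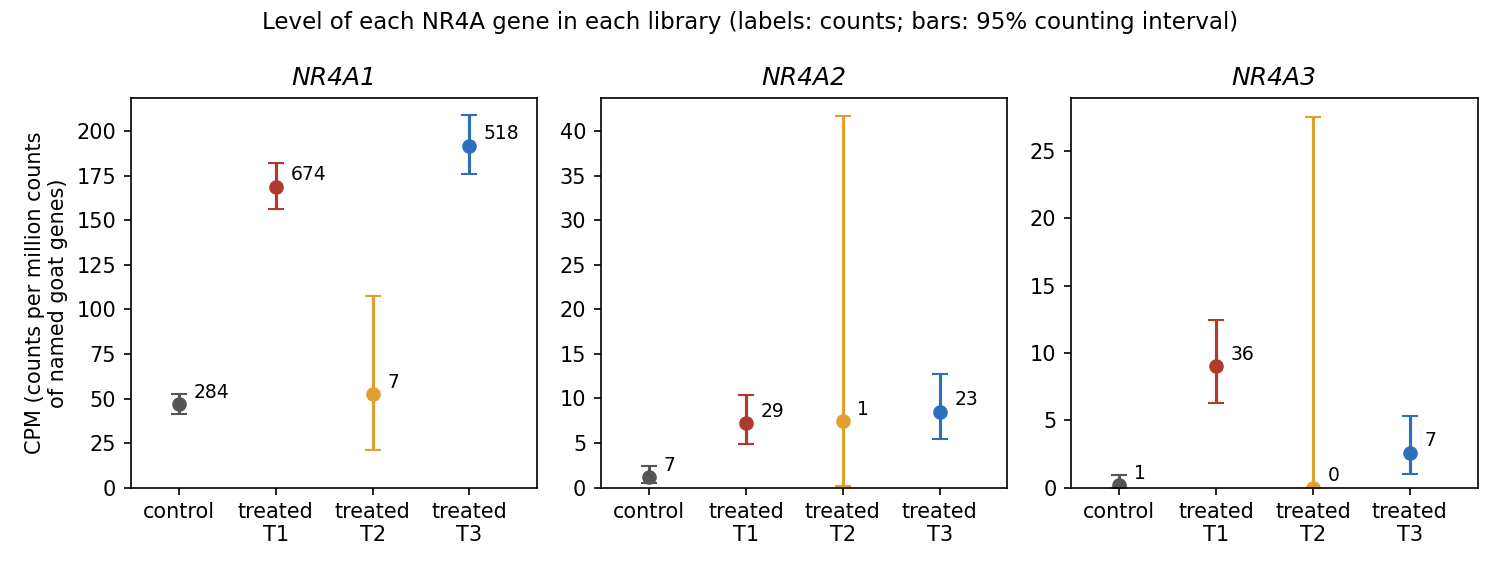
Level of NR4A1, NR4A2 and NR4A3 (y axis, CPM, counts per 1000000 counts of named goat genes) in the control library and T1 to T3 (x axis); points are single libraries, bars are exact 95% counting intervals, and the numbers beside the points are counts. NR4A1 sits at 169 and 192 CPM in T1 and T3 against 46.7 in the control library, while the bars of T2 span most of the range in the panels of NR4A2 and NR4A3.

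NR4A2, also known as Nurr1, was expressed at a much lower level. It had 7 counts in the control library, 29 in T1, 1 in T2 and 23 in T3, or 1.15 CPM (0.462 to 2.37), 7.27 (4.87 to 10.4), 7.47 (0.189 to 41.6) and 8.53 (5.41 to 12.8). T1 and T3 were both above the control library, and the intervals did not overlap. The ratio to the control library was 6.32 (2.71 to 17.1) in T1 and 7.41 (3.08 to 20.5) in T3. In T2 it was 6.50 (0.144 to 50.6) from a single count, and relative to all counts 0.166 (0.00369 to 1.29), so no difference was detectable there at this depth.

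NR4A3, also known as NOR-1, was nearly absent from the control library. It had 1 count in the control library, 36 in T1, 0 in T2 and 7 in T3, which gave 0.164 CPM (0.00416 to 0.915), 9.02 (6.32 to 12.5), 0 and 2.60 (1.04 to 5.35). The 0 in T2 allows a level of up to 22.4 CPM by the limit of 3 counts, and of up to 27.6 by the exact interval, both above the value of any other library. The ratio to the control library was 54.9 (9.24 to 2228) in T1 and 15.8 (2.03 to 712) in T3. Both rest on the single control count. Of the 7 counts in T3, 3 were on the shorter NR4A3 unigene, which had 0 counts in the control library, T1 and T2. The longer NR4A3 unigene alone had 4 counts in T3. Its ratio there was 9.025 (0.893 to 444), an interval that includes 1. No ratio was given for T2.

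Relative to named goat genes, all 3 members had ratios above 3 in both T1 and T3. For NR4A1 this depended on the scale: relative to all counts it was at 2.54 and 2.33 in T1 and T3, relative to all goat-paired unigenes at 2.72 and 2.42, and relative to GAPDH at 2.39 in T3. The limits 3 and 0.6 follow the methods of the study. For counts over all genes, 0.5 counts were added to each library. Among 9470 goat genes with at least 10 counts over the 4 libraries, 5.63% were above 3 in T1, 3.15% in T3 and 1.71% (162 genes) in both. The median goat gene was at 0.743 and 0.728 times the control value in these libraries, or -0.43 and -0.46 on the log2 scale, and relative to all counts this median was -0.94 and -1.28. NR4A1 was exceeded by 392 of these genes in T1 and by 134 in T3, NR4A2 by 170 and 50, and NR4A3 by 16 and 22. In T2, where 19.0% of genes were above 3, NR4A2 and NR4A3 were above this limit with 0.5 counts added, from 1 and 0 counts. Relative to all counts, 0.128% of the genes past a limit in T2 were above 3, against 39.97% relative to named goat genes.

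The 3 treated libraries were also taken as replicates in 1 test. edgeR's quasi-likelihood test against the lone control library, which is assumed to vary like the treated ones, gave NR4A3 a log2 difference of 5.06 (SE 1.37, Benjamini-Hochberg adjusted p = 0.0276 over 9470 genes), with the treated value above the control in 2 of the 3 libraries. Of all genes tested, 49 (0.517%) were called higher and 66 (0.697%) lower in treated libraries. NR4A2 had a log2 difference of 3.03 (SE 1.05, edgeR adjusted p = 0.118) and NR4A1 of 1.91 (SE 0.92, edgeR adjusted p = 0.354). NR4A3 reached the minimum of 10 counts only through T1, where it was highest, and had too few counts to be tested without T1, so its call is given as a value and not as support for a difference between conditions. The edgeR adjusted p was 0.0362 with no minimum, and the call was lost without T2 (adjusted p = 0.0833), without T3 (adjusted p = 0.311) and for its unigene of 1352 bases in the edgeR fit over unigenes (adjusted p = 0.138), while DESeq2 gave it an unadjusted p of 0.0170 and no adjusted p. These p-values measure only the spread between these libraries.

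T1 and T3 were also compared with each other. NR4A1 in T1 was at 0.880 (0.783 to 0.988) times its level in T3, but at 1.09 (0.971 to 1.23) relative to all counts and at 1.66 relative to GAPDH, so its order between these libraries depended on the scaling. GAPDH itself in T1 was at 0.530 times its level in T3 relative to named goat genes. NR4A2 was at 0.852 (0.476 to 1.54), which includes 1. NR4A3 was at 3.48 (1.53 to 9.26) times its level in T3, and at 4.31 (1.89 to 11.5) relative to all counts.

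The make-up of the family in T1 therefore differed from that in the control library. In T3 the intervals of the NR4A1 and NR4A3 shares overlapped those of the control library. NR4A1 held 97.3% (94.7 to 98.8) of the 292 NR4A counts in the control library, 91.2% (88.9 to 93.2) of 739 in T1 and 94.5% (92.3 to 96.3) of 548 in T3. NR4A3 held 0.343% (0.00867 to 1.89) in the control library, 4.87% (3.44 to 6.68) in T1 and 1.28% (0.515 to 2.61) in T3. With the further unigenes that match a member by nucleotide sequence only, the NR4A3 share was 1.34%, 29.1% and 3.15% and the NR4A1 share 95.3%, 66.0% and 90.7% in the same order. The share of NR4A2 was 2.40% (0.969 to 4.88), 3.92% (2.64 to 5.59) and 4.20% (2.68 to 6.23) for the paired unigenes in that order, with overlapping intervals. In T2 the family had 8 counts. Per kb of effective unigene length, the level in the control library was 20.1 CPM per kb for NR4A1, 0.721 for NR4A2 and 0.127 for NR4A3. In T1 it was 72.3, 4.53 and 8.15, and in T3 it was 82.8, 5.32 and 1.99, so that NR4A3 stood above NR4A2 in T1 and below it in T3. The intervals of the CPM levels of these 2 genes overlapped in T1.

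The 5′ and 3′ unigenes of NR4A1 gave different ratios. The 5′ unigene had 124 counts in the control library, 69 in T1, 4 in T2 and 126 in T3. The 3′ unigene had 160, 605, 3 and 392 counts in the same order. The share of NR4A1 counts on the 3′ unigene was thus 56.3% (50.4 to 62.2) in the control library, 89.8% (87.2 to 92.0) in T1, 42.9% (9.90 to 81.6) in T2 and 75.7% (71.7 to 79.3) in T3. The ratio to the control library of the 3′ unigene was 5.77 (4.84 to 6.91) in T1 and 5.53 (4.59 to 6.69) in T3. That of the 5′ unigene was 0.849 (0.623 to 1.15) in T1, which includes 1, and 2.29 (1.78 to 2.96) in T3. In T1 the interval thus lay above 1 for the 3′ unigene only, whereas in T3 it lay above 1 for both.

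**Figure D2:**
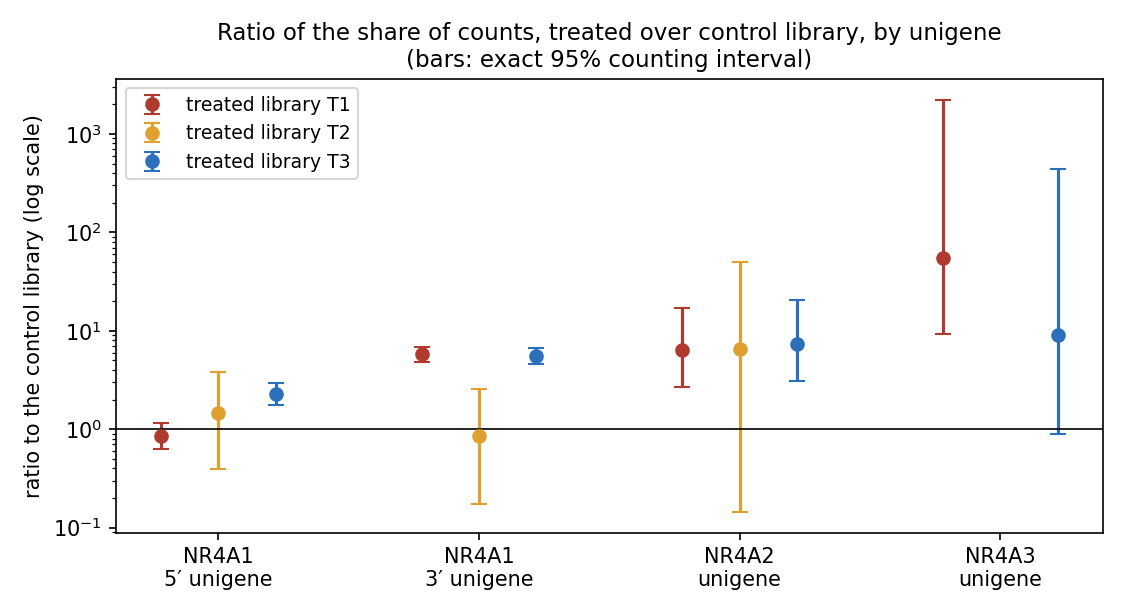
Ratio of the share of counts in each treated library to that in the control library (y axis, log scale) for the NR4A1 5′ and 3′ unigenes and the longest unigenes of NR4A2 and NR4A3 (x axis); colours are T1 to T3, bars are exact 95% counting intervals, and NR4A3 has no point for T2, where it had 0 counts. The 3′ unigene of NR4A1 lies at 5.77 and 5.53 in T1 and T3, the 5′ unigene at 0.849 and 2.29.

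A shift of counts toward the 3′ end was seen over other genes as well. Among goat genes with 1 unigene that begins with a start codon and is open at its 3′ end and 1 unigene that is open at its 5′ end and ends in a stop codon, and with at least 20 counts on each over the treated and the control library, the log2 ratio of 3′ to 5′ counts exceeded that of the control library in 51 of 56 genes (91.1%) in T1 and in 49 of 55 (89.1%) in T3. The median shift was 2.04 on the log2 scale (quartiles 1.41 and 3.16) in T1 and 1.41 (quartiles 0.76 and 1.89) in T3. NR4A1 shifted by 2.76 and 1.27, and 66.1% and 47.3% of these genes shifted by less. In T2 the median shift was 0.36 over 45 genes and that of NR4A1 was -0.73.

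**Figure D3:**
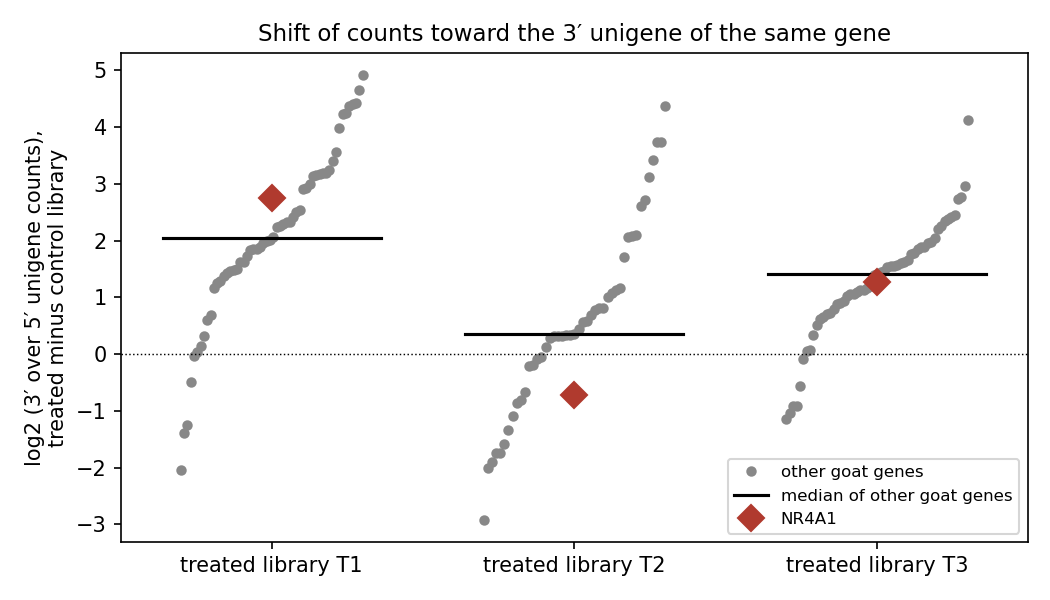
Treated minus control library for the log2 ratio of 3′ to 5′ unigene counts of the same gene (y axis) for T1 to T3 (x axis); grey points are other goat genes in rising order, black lines their medians and diamonds NR4A1. In T1 and T3 most genes lie above 0, with medians of 2.04 and 1.41, and NR4A1 lies among them at 2.76 and 1.27.

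The member unigenes were also set beside 2 kinds of unigene, to neither of which the NR4A1 and NR4A2 unigenes themselves belong, because their deposited coding sequences begin or end inside the unigene. Among 825 unigenes that end in a stop codon and are open at the 5′ end, the median ratio to the control library was 0.924 in T1 and 0.852 in T3, 13.3% and 6.91% were above 3 (36.8% in T2), and 5.09% were above 3 in both T1 and T3. The NR4A1 3′ unigene was exceeded by 40 of them in T1 and by 20 in T3. The NR4A3 unigene of 1352 bases, which is itself one of these 825, was exceeded by 3 and 9, and the NR4A2 unigene by 36 and 9. Among 1894 unigenes that begin with a start codon and are open at the 3′ end, the median ratio was 0.241 in T1 and 0.362 in T3. The NR4A1 5′ unigene was exceeded by 282 of them in T1 and by 51 in T3. The part of the 3′ shift in the ratios of the members was not tested.

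Many other immediate early and cAMP-responsive genes also had ratios above 3 in T1. Of 29 genes listed, 21 were found, and 12 of them were above 3 and 2 below 0.6 in T1, against 3 and 6 in T3 and 4 and 8 in T2. The median log2 ratio of the list was 1.85 in T1, 0.12 in T2 and 0.20 in T3, beside -0.43, 0.12 and -0.46 for all genes. In the same order, 5.63%, 19.0% and 3.15% of all genes were above 3 and 39.1%, 28.6% and 38.7% below 0.6. Ratios in T2 rest on few counts, and 3 genes of this list, 10 of the CREB pathway list and 10 of the other nuclear receptors had 0 counts there among the genes found, so that the T2 ratio of these genes came from the 0.5 counts added. The highest in T1 were FOSL1, a partner of JUN in the AP-1 factor, and CREM, a CREB relative. FOSL1 had 1, 84, 0 and 2 counts in the order control, T1, T2 and T3. CREM had 237, 1843, 11 and 120 counts, a ratio of 11.8 in T1 and 1.15 in T3. The lowest were PDE4B, a cAMP-degrading enzyme, with ratios of 0.186, 0.253 and 0.366 in T1, T2 and T3, and PPARGC1A, a coactivator of mitochondrial genes, with 46, 16, 0 and 1 counts and a ratio of 0.541 in T1. KLF4, a transcription factor of the Krüppel-like family, had 110, 260, 15 and 265 counts and ratios of 3.60, 6.38 and 5.42. FOSL1, KLF4 and IER3 were the members of this list above 3 in T3, at 3.76, 5.42 and 3.29.

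Upstream components of the CREB pathway were mostly at or below the control value. Of 32 listed genes 29 were found and 28 had enough counts, and 0 of these were above 3 and 18 below 0.6 in T1, against 1 and 17 in both of the other treated libraries. The median log2 ratio was -1.41, -1.16 and -0.81 in T1, T2 and T3, beside -0.43, 0.12 and -0.46 for all genes. Over all genes, 5.63%, 19.0% and 3.15% were above 3 and 39.1%, 28.6% and 38.7% below 0.6. The highest in T1 were PRKAR2B, a regulatory subunit of protein kinase A, with 1, 2, 0 and 7 counts, and ADCY5, an adenylyl cyclase, with 9, 9, 0 and 2 counts. The lowest were CAMK2G, a calmodulin-dependent kinase, with ratios of 0.0823, 0.295 and 0.658, and ADCY9, another adenylyl cyclase, with 0.125, 0.219 and 0.328. CAMK2D, ELK1, MEF2A and EP300 were also below 0.6 in both T1 and T3. CREB1 itself had 13, 3, 0 and 2 counts.

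Most other nuclear receptors were below the control value in T1 and T3. Of 45 listed, 24 were found and 22 had enough counts, and 0 of these were above 3 in T1 or T3, where 17 and 13 were below 0.6. Their median log2 ratio was -1.50 in T1, -0.54 in T2 and -1.10 in T3, beside -0.43, 0.12 and -0.46 for all genes. Among all genes, 5.63% in T1 and 3.15% in T3 were above 3, and 39.1% and 38.7% were below 0.6. The highest in T1 were NR3C1, the glucocorticoid receptor, with 244, 250, 2 and 121 counts and ratios of 1.56 and 1.12 in T1 and T3, and NR1H2, an oxysterol receptor, with 1.29 and 1.21. The lowest were RARB, a retinoic acid receptor, with 17, 0, 0 and 3 counts, and ESR1, an oestrogen receptor, with 25, 1, 0 and 2 counts. NR1D2, NR2C1, PPARA and ESRRG were among those below 0.6 in both T1 and T3.

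**Figure D4:**
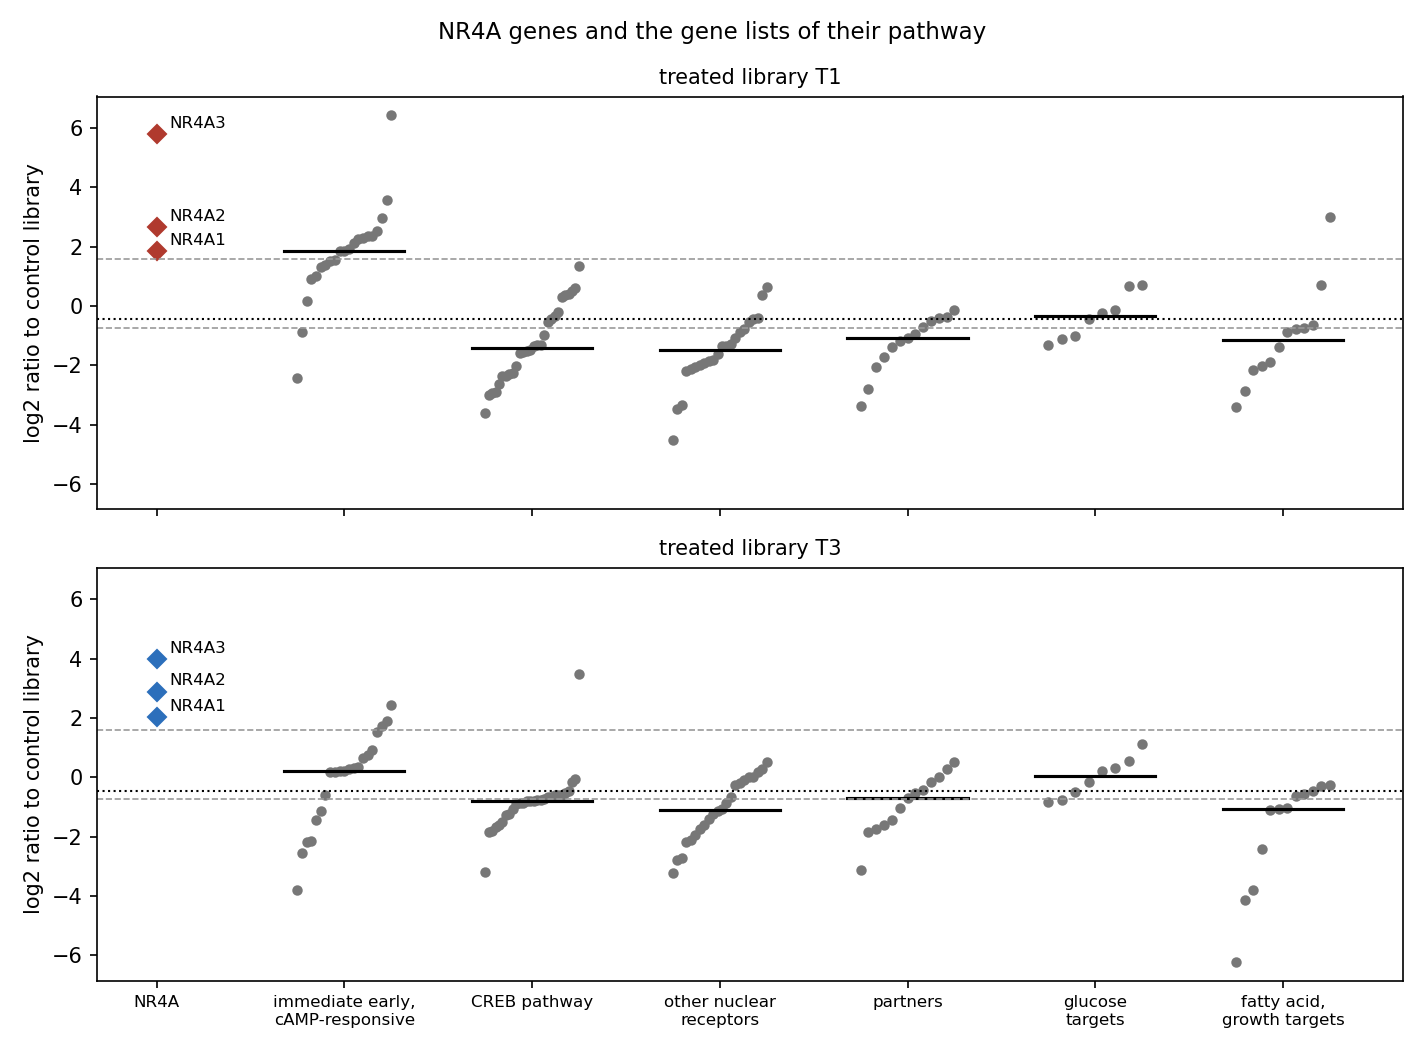
Log2 ratio to the control library (y axis) of the NR4A genes and of the genes of 6 lists (x axis) in T1 and T3 (panels); each point is 1 gene, diamonds are the NR4A genes without added counts, grey points have 0.5 counts added, black bars are list medians, the dotted line is the median of all goat genes and dashed lines mark ratios of 3 and 0.6. The 3 NR4A genes lie above the upper dashed line in both panels, and the median of the immediate early list is 1.85 in T1 and 0.20 in T3.

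Of 15 listed proteins that bind NR4A receptors or work with them, 13 were found with enough counts. In T1 and T3, 0 of them were above 3, beside 5.63% and 3.15% of all genes, and 8 and 6 were below 0.6, beside 39.1% and 38.7%, with medians of -1.07 and -0.68. In T2, 1 was above 3 and 5 were below 0.6, beside 19.0% and 28.6% of all genes, with a median of -0.54. There, 3 of the 13 genes had 0 counts, so their T2 ratios came from the 0.5 counts added. The median of all genes was -0.43, 0.12 and -0.46 in T1, T2 and T3. MDM2, a ubiquitin ligase, was among the highest in T1, at 0.778. The lowest were the coactivators NCOA3 at 0.0959 and NCOA2 at 0.145, which with the corepressor TRIM28 were below 0.6 in both T1 and T3. RXRG, a retinoid X receptor and thus of the class with which NR4A1 and NR4A2 form dimers, had 1585, 791, 40 and 715 counts and ratios of 0.761, 1.16 and 1.02.

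Genes known as NR4A targets in muscle were read against the shares over all genes, 5.63% above 3 and 39.1% below 0.6 in T1 and 3.15% and 38.7% in T3. In T2 these shares were 19.0% and 28.6%, and the median of all genes was -0.43, 0.12 and -0.46 in T1, T2 and T3. Of 8 glucose and glycogen genes found of 10, 0 were above 3 in any treated library, and 3, 5 and 2 were below 0.6 in T1, T2 and T3, with medians of -0.32, -1.53 and 0.04. The highest in T1 were SLC2A4, the insulin-responsive glucose transporter, at 1.64 and BPGM at 1.60, and the lowest were PHKA1, a subunit of phosphorylase kinase, at 0.402 and PYGM, muscle glycogen phosphorylase, at 0.465. PFKM and PHKA1 were below 0.6 in both T1 and T3. Of 12 fatty acid and growth genes found of 13, 1, 0 and 0 were above 3 and 9, 9 and 7 below 0.6, with medians of -1.13, -2.41 and -1.06. In T2, 3 of these 12 genes had 0 counts, so their T2 ratios came from the 0.5 counts added. MSTN, which codes for myostatin, a brake on muscle growth, was the highest in T1, with 29, 153, 1 and 8 counts and ratios of 7.94 and 0.650 in T1 and T3, and LPIN1, a phosphatidate phosphatase, was next at 1.65 and 0.469. The lowest were FOXO1, a transcription factor of the fasting response, with 251, 15, 0 and 1 counts, and UCP3, a mitochondrial uncoupling protein, at 0.136. FOXO1 was below the control library in these counts, whereas the study reports it as higher in treated goats by RNA-seq and qRT-PCR. PDK4, which inhibits pyruvate dehydrogenase and thereby glucose oxidation, had 11892, 1749, 20 and 298 counts and ratios of 0.224, 0.0784 and 0.0566. FOXO1, PDK4, CPT1B, UCP2, PPARGC1A and PRKAG3 were below 0.6 in both T1 and T3.

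Genes of stress and of other cell types were measured beside the receptors. Of 9 heat shock and stress genes found of 12, 3 were above 3 and 0 below 0.6 in T1, against 0 and 4 in T3 and 1 and 4 in T2. The shares over all genes in T1, T3 and T2 were 5.63%, 3.15% and 19.0% above 3 and 39.1%, 38.7% and 28.6% below 0.6. The summed level below is that of the 9 stress genes. Their summed level was 9342 CPM in the control library, 27337 in T1, 3864 in T2 and 4214 in T3. GADD45B, a DNA damage and stress response gene, had 11, 100, 1 and 10 counts, and CRYAB, a small heat shock protein, had ratios of 3.69, 0.302 and 0.303, while HSP90AA1 at 1.09 and HSPA8 at 1.35 were the lowest in T1. Adipocyte markers, 3 of 6 of which were found, summed to 14.8, 111, 859 and 28.5 CPM in the order control, T1, T2 and T3. Endothelial markers, 6 of 7, summed to 319, 212, 882 and 425, smooth muscle and pericyte markers, all 6 with ACTA2 among them, to 39270, 24861, 32076 and 55588, and fibroblast markers, 4 of 6, to 114, 168, 2220 and 270. ACTA2 held 238187 of the 239009 smooth muscle and pericyte counts in the control library. That sum is therefore mostly ACTA2, whose division from ACTA1 is uncertain, and is no measure of smooth muscle. Satellite cell markers, 3 of 5, summed to 46.3, 15.0, 44.8 and 49.3. Leukocyte markers, 4 of 8, summed to 7.47 CPM or less in every library. PTPRC had 2, 1, 0 and 0 counts and CD14 had 3, 0, 0 and 0. CD68, the 1 leukocyte marker that reached 10 counts over the 4 libraries, had 7, 18, 0 and 3. Its ratio was 3.76 in T1. MRC1 had 0, 2, 1 and 0 counts. The 1 red blood cell marker found of 6, SLC4A1, lay between 4.27 and 15.0. In these bulk samples more cells of a type and more RNA per cell cannot be told apart, and the part of the other cell types and of the stress genes in the NR4A levels was not tested.

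The genes with the most similar pattern were taken as those closest by Euclidean distance over the 3 log2 ratios, among 7184 goat genes with at least 50 counts. For NR4A1 they were C25H16orf13, MYL1, PEBP4, SCNM1 and LOC102170668, at distances from 0.475 to 0.694. MYL1, a myosin light chain of fast fibres, had 17576, 36364, 600 and 26618 counts and ratios of 3.16, 1.55 and 3.42 in T1, T2 and T3. For NR4A2 they were PTGER4, TMEM100, OXTR, GRASP and NEDD9, at distances from 0.476 to 0.733. PTGER4, a prostaglandin E2 receptor, had 9, 32, 2 and 33 counts. For NR4A3, which did not itself reach 50 counts, they were BTG2, ISG15, PIBF1, DLL1 and TPM4, at distances from 0.720 to 1.47. BTG2, an antiproliferative immediate early gene, had 6, 114, 1 and 29 counts and ratios of 26.9, 10.5 and 10.2. The 3 ratios share the control library, and those of T2 rest on few counts.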

How the data were processed

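RNA-seq of 4 goat muscle libraries was sequenced by the authors on an Illumina HiSeq and assembled de novo into 59774 unigenes; the assembler and counter are not given in the sources used here, and FastQC 0.10.1 is named in the submitters' processing notes. The authors deposited for each unigene and transcript the expected count (all whole numbers), effective length, TPM and FPKM. They also deposited a table of the best goat protein match with its percent identity, and an annotation table with length and sequence. Expected counts were summed per goat gene. The 25 unigenes paired with a protein but no gene name, mitochondrial in all their counts, were left out of the library sizes (23.8, 42.8, 97.9 and 55.2% of goat-paired counts in the control library and T1, T2 and T3), and both other denominators were tried. TPM was not used for tests, and deposited FPKM values times length served as an alternative. The authors' tables of FPKM classes were not used.

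A ratio is a share of counts in a treated library over that in the control library, with an exact 95% interval and no p-value. edgeR 4.0.16 (R 4.3.3, quasi-likelihood test, TMM, at least 10 counts summed, adjusted p under 0.05) compared 3 treated libraries with 1 control library, and DESeq2 1.42.0 was an alternative. The edgeR script was tested on simulated counts. Python 3.11.15, pandas 2.3.3, numpy 2.4.6, scipy 1.17.1, Biopython 1.88 and matplotlib 3.10.9 were used. Of the goat gene names, 10197 of 11208 were found in the RefSeq annotation ARS1.2; the build behind the authors' table is not named, so no chromosome positions are given.

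Genes named are the 3 members, the 5 genes closest to each, GAPDH, and of each pathway list the 2 highest and 2 lowest ratios in T1. Up to 5 genes of each list past the limits in the same direction in all 3 treated libraries are named too. IER3, CREB1, RXRG, PTPRC, CD14, CD68, MRC1, ACTA1, ACTA2 and SLC4A1, and a sixth fatty acid gene, were named after their values were seen. Values of some list members that this rule names are not reported here. The members and lists were chosen with earlier results of these data known. The comparison of 3′ and 5′ unigenes was chosen after the values were seen. Alternatives covered scaling, filters, unigenes per gene, tables, limits, added counts and leaving out each treated library.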

Additional observations from a re-analysis of the deposited data

Results flagged for a closer look

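Some unigenes outside the measurement above carried NR4A signal above the control library. They match NR4A2 or NR4A3 in the nucleotide database, but the authors' table pairs them with no goat gene, so they were not counted. The 3 unigenes of this kind for NR4A3 had 3 counts in the control library, 261 in T1, 0 in T2 and 11 in T3. Their ratio to the control library was 133 (44.9 to 647.5) in T1 and 8.27 (2.19 to 46.2) in T3. Most of these counts were on 1 unigene of 2352 bases, with 3, 195, 0 and 9 counts. The 3 unigenes for NR4A2 had 3, 21, 0 and 12 counts, with ratios of 10.7 (3.19 to 55.9) in T1 and 9.03 (2.44 to 49.8) in T3. No further unigene of this kind was found for NR4A1. All of these ratios rest on 3 control counts.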

How the results depend on the processing

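Of 218 values recomputed for 26 results, 167 kept their direction and call or stayed within the interval or 1.5 times the value, 44 moved further, 3 lost the call and 4 reversed; the causes were not tested unless the setting itself shows them. For NR4A1, the ratios in T1 and T3 were 2.54 and 2.33 relative to all counts, 2.72 and 2.42 relative to all goat-paired unigenes, 4.54 and 5.26 with TMM, 4.49 and 5.23 with the median of ratios and 5.77 and 5.53 on the 3′ unigene alone, and 2.39 in T3 relative to GAPDH; in T2 the ratio was 0.0287 relative to all counts and 0.0311 relative to all goat-paired unigenes. The ratio of T1 to T3 for NR4A1 reversed to 1.09 relative to all counts, 1.66 relative to GAPDH, 1.12 relative to all goat-paired unigenes and 1.04 on the 3′ unigene alone, and moved to 1.61 for NR4A2 relative to GAPDH. With the unigenes of a nucleotide match only, that ratio was 11.2 for NR4A3, and NR4A1 held 66.0% of NR4A counts in T1 and 90.7% in T3. The ratios of NR4A2 and NR4A3 to the control library stayed within their wide intervals.

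Goat genes above 3 in T1, T2 and T3 numbered 862, 3509 and 547 with at least 1 count, 314, 840 and 150 with at least 50 counts, 303, 12 and 89 relative to all counts, 1083, 2759 and 726 with limits of 2 and 0.5, and 503 in T3 with TMM (main values 533, 1802 and 298). Those below 0.6 numbered 9343 in T2 and 6815 in T3 relative to all counts, and 4493 in T2 with 0.1 counts added (main values 2706 and 3666). The tested calls, 49 higher and 66 lower, became 0 and 0 with at least 50 counts (277 and 430 at an unadjusted p under 0.05), 3 and 1 with DESeq2, and 80 higher with unigenes. Leaving out a treated library gave between 1 and 9 higher and between 0 and 20 lower; without T1, T2 and T3 there were 2, 9 and 1 higher. The log2 difference of NR4A3 was 5.19 with DESeq2, which gave no adjusted p, and 5.33 to 5.48 without T2 or T3, where the call was lost (adjusted p = 0.0833 and 0.311); its adjusted p ranged from 0.0276 to 0.311 over the alternatives that gave one. No paired analysis was possible because the control is 1 library whose title carries no number, so that no more than 1 pair could be formed.

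The depth in named goat genes limits T2, where 1 count is worth 7.47 CPM, and the control library limits NR4A3, which had 1 count there.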
